A study of Mus musculus with 9 samples.

Results

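The genes described here are 10 genes of chondrocyte hypertrophy and cartilage mineralization, taken by name from the 54532 mouse genes of the deposited table. They are Mef2c, Alpl, Phospho1, Smpd3, Enpp1, Ank, Ibsp, Spp1, Panx3 and Ostn. Each symbol matched 1 Ensembl identifier, and all 10 genes had a mean of at least 10 normalized counts over the 9 libraries, the level above which genes were tested. The cells came from knees of mouse embryos at stage E14.5, when joints form between the cartilages of the future bones. Every embryo carried both reporter alleles in heterozygous form, Creb5 3XHA-P2A-tdTomato/+ and Sox9 iresEGFP/+, so no group lacked a reporter allele. Creb5 encodes a bZIP transcription factor and its allele gives red fluorescence (RFP), while Sox9 encodes the transcription factor that directs cartilage formation and its allele gives green fluorescence (GFP). Sorting gave double-positive cells with both signals, RFP-only cells and GFP-only cells, with 3 libraries for each population, 1 from each of the litters numbered 1, 2 and 5. Values below follow that order of litters. The strain, and how many embryos of a litter were pooled, are not given in the sources used here.

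Chondrocytes that leave proliferation enlarge, become hypertrophic and prepare their matrix for mineral. Mineral starts in matrix vesicles, where phosphatases release inorganic phosphate, and it is held back by pyrophosphate outside the cell. Mef2c drives the hypertrophic program. Phospho1, Smpd3 and Alpl encode enzymes that feed phosphate to mineral, Enpp1 and Ank supply the inhibitor pyrophosphate, and Ibsp and Spp1 encode acidic matrix proteins that bind mineral. Panx3 encodes a membrane channel of cartilage and bone, and Ostn a small secreted peptide related to the natriuretic peptides.

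Recovered reads came to between 25199258 and 47079305 per library. Among the GFP-only libraries that of litter 5 stood apart: its counts differed from those of litters 1 and 2 by a chi-square of 374 and 341 per degree of freedom, against 82.3 between litters 1 and 2. Col1a1, the main collagen gene of bone and perichondrium, had 61004, 225055 and 6541 normalized counts in GFP-only cells. Creb5 and Sox9 set the sort and followed the labels. Creb5 had 3408, 2969 and 2754 normalized counts in double-positive, 3343, 2006 and 3531 in RFP-only and 196, 138 and 274 in GFP-only cells, and Sox9 had 29767, 16565 and 24088 in double-positive, 1873, 1091 and 1891 in RFP-only and 37992, 22771 and 25967 in GFP-only cells.

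All 10 genes had their highest mean in GFP-only cells, an intermediate mean in double-positive cells and their lowest mean in RFP-only cells, an order that 26.1% of tested genes shared. In double-positive relative to GFP-only cells 7 of the 10 fell, namely Mef2c, Alpl, Phospho1, Smpd3, Spp1, Panx3 and Ostn, none rose and 3 did not pass. By the same test (limma, Benjamini-Hochberg adjusted p under 0.05), 8.29% of 17764 genes were called in this comparison, 3.02% lower and 5.27% higher. In RFP-only relative to GFP-only cells 9 fell and Ank did not pass, where 20.3% of tested genes were called, 8.48% lower and 11.8% higher. In double-positive relative to RFP-only cells Panx3 and Enpp1 rose and 8 did not pass, where 2.85% of tested genes were called, 1.05% lower and 1.8% higher. An F-test over the 3 populations called 8 of the 10, all but Ibsp and Ank, and 17.2% of tested genes.

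The median log2 difference of the 10 genes was -3.89 in double-positive relative to GFP-only cells, beside 0.04 over all tested genes. It was -6.00 in RFP-only relative to GFP-only cells, beside 0.05, and 2.00 in double-positive relative to RFP-only cells, beside -0.01. The comparisons share libraries, so they are not independent. The values of RFP-only and GFP-only libraries did not overlap for any of the 10 genes, whereas 18.5% of tested genes were lower in RFP-only cells with no overlap. Double-positive and GFP-only values did not overlap for 7 genes (Alpl, Phospho1, Smpd3, Mef2c, Ibsp, Panx3 and Ostn), and 13.8% of tested genes were lower in double-positive cells in that way. Double-positive values lay above all RFP-only values for Spp1, Panx3 and Enpp1, as they did for 11.2% of tested genes.

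These are bulk libraries, in which fewer cells of a type and less RNA per cell cannot be told apart. The 10 genes together held 0.0146%, 0.0329% and 0.0737% of the normalized counts of double-positive libraries, 0.00767%, 0.0191% and 0.0147% of RFP-only libraries and 0.271%, 0.526% and 0.395% of GFP-only libraries. Leaving out GFP-only litter 5, the library that stood apart, 6, 9 and 2 of the 10 genes were called in double-positive relative to GFP-only, RFP-only relative to GFP-only and double-positive relative to RFP-only cells, beside 1553, 3655 and 1050 of all tested genes in the same fit and 1472, 3601 and 506 with all libraries.

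**Figure D1:**
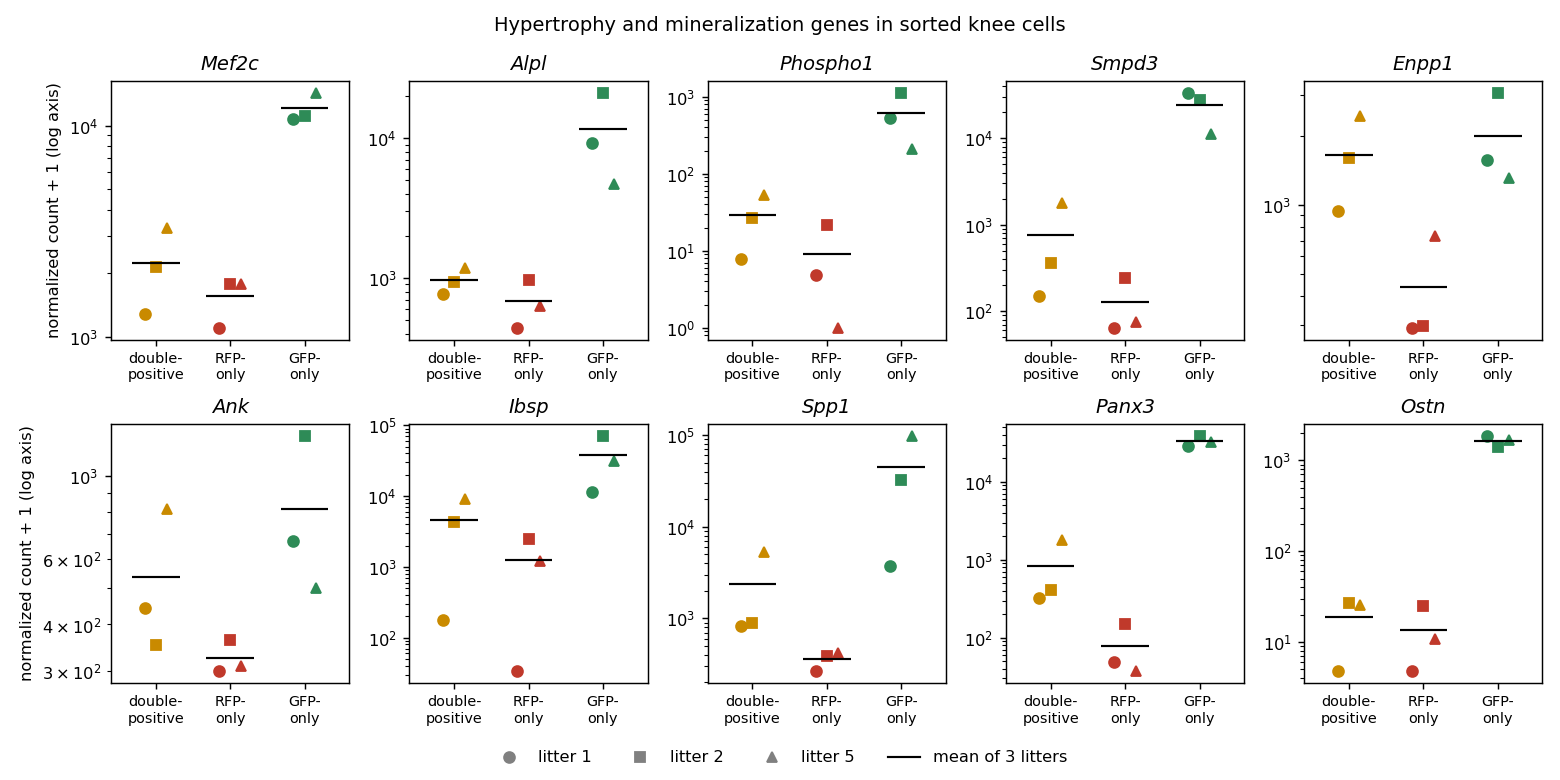
Normalized counts (plus 1, log axis) of the 10 genes in each library, by population, with 1 symbol per litter and a bar for the mean of 3 litters. Panx3, Ostn, Smpd3 and Mef2c lie above both other populations in all 3 GFP-only libraries, while Enpp1 and Ank of double-positive and GFP-only cells overlap.

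Mef2c (chr13:83504034-83667080, plus strand, GRCm38) encodes a MADS-box transcription factor that acts in hypertrophic chondrocytes and also in muscle and endothelium. It had 1278, 2149 and 3264 normalized counts in double-positive libraries, 1101, 1782 and 1782 in RFP-only libraries and 10713, 11154 and 14313 in GFP-only libraries. The GFP-only libraries were close to each other and lay above every other library, and double-positive and RFP-only values overlapped. Mef2c fell in double-positive relative to GFP-only cells (log2 fold change -2.52 ± 0.33, SE; limma adjusted p = 0.00158) and in RFP-only relative to GFP-only cells (-2.98 ± 0.33, adjusted p = 0.000142). Between the double-positive and RFP-only populations its log2 difference of 0.45 had a 95% interval of -0.27 to 1.17 and did not pass (adjusted p = 0.7).

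Alpl (chr4:137741733-137796384, minus strand) encodes tissue-nonspecific alkaline phosphatase, which splits pyrophosphate and frees phosphate. It had 763, 943 and 1179 normalized counts in double-positive libraries, 439.5, 968 and 629 in RFP-only libraries and 9291, 21206 and 4697 in GFP-only libraries. Double-positive and RFP-only values overlapped, and both lay below all GFP-only values, among which litter 2 was 4.51 times litter 5. Alpl fell in double-positive relative to GFP-only cells (log2 fold change -3.36 ± 0.47, limma adjusted p = 0.00221) and in RFP-only relative to GFP-only cells (-3.92 ± 0.47, adjusted p = 0.000249). Its double-positive to RFP-only difference of 0.55 had an interval of -0.48 to 1.59 (adjusted p = 0.775).

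Phospho1 (chr11:95824499-95832140, plus strand) encodes a phosphatase of phosphocholine and phosphoethanolamine inside matrix vesicles. It had 6.73, 25.7 and 52.3 normalized counts in double-positive libraries, 3.81, 20.4 and 0 in RFP-only libraries and 524, 1128 and 212 in GFP-only libraries. The RFP-only values rest on 5, 18 and 0 reads, and a count of 0 in litter 5 allows up to 3 reads, or 4.20 normalized counts. Every GFP-only value was above every other one, in the same order of litters (2, 1, 5) as for Alpl. Phospho1 fell in double-positive relative to GFP-only cells (log2 fold change -4.49 ± 1.10, limma adjusted p = 0.03) and in RFP-only relative to GFP-only cells (-6.74 ± 1.10, adjusted p = 0.00157). The call for double-positive cells was lost when litter 1 or 2 of either population was left out (adjusted p of 0.0615 to 0.107), with a pseudocount of 0.5 (0.0507), with no filter on low values (0.0523) and with no mean-variance trend (0.0682). The Phospho1 call was also lost when litter 1 or 2 was left out of all populations (limma adjusted p up to 0.233). Of its 2029 exonic bases 1818 are also annotated as exon of Zfp652 on the same strand, and 1708 as exon of Abi3 on the other, so its reads may be shared with genes that were at 719 to 1487 (Zfp652) and 12.5 to 119 (Abi3) normalized counts over the 9 libraries.

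Smpd3 (chr8:106252548-106337988, minus strand) encodes neutral sphingomyelinase 2, which releases phosphocholine, a substrate of the Phospho1 enzyme. It had 148, 362 and 1779 normalized counts in double-positive libraries, 63.2, 238 and 74.2 in RFP-only libraries and 33487, 27772 and 11288 in GFP-only libraries. The GFP-only value was lowest and the double-positive value highest in litter 5, so the log2 ratio of double-positive to GFP-only cells within litters was -7.81, -6.26 and -2.67. Smpd3 fell in double-positive relative to GFP-only cells (log2 fold change -5.58 ± 0.80, limma adjusted p = 0.00241), a call lost when litter 2 was left out of all populations (0.0579), and in RFP-only relative to GFP-only cells (-7.71 ± 0.80, adjusted p = 9.87e-05). Its double-positive to RFP-only difference of 2.13 ± 0.80 did not pass (adjusted p = 0.237), with ratios of 1.21, 0.60 and 4.56 within litters.

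The 2 genes that raise extracellular pyrophosphate shared the order of means of the other genes, and neither passed in double-positive relative to GFP-only cells. Enpp1 (chr10:24637914-24712159, minus strand), an ectoenzyme that makes pyrophosphate from nucleotides, had 944, 1593 and 2434 normalized counts in double-positive libraries, 291, 296 and 735 in RFP-only libraries and 1576, 3078 and 1315 in GFP-only libraries. Double-positive and GFP-only values overlapped, while all RFP-only values were lower than both. For double-positive relative to GFP-only cells the log2 difference was -0.27, with a 95% interval of -1.28 to 0.75 (limma adjusted p = 0.753) and ratios of -0.74, -0.95 and 0.89 within litters, so that litter 5 had the opposite sign. Enpp1 fell in RFP-only relative to GFP-only cells (-2.22 ± 0.46, adjusted p = 0.00628), a call lost when litter 1 or 2 was left out of all populations (0.0527 and 0.111). It rose in double-positive relative to RFP-only cells (1.95 ± 0.46, adjusted p = 0.0486), higher in 3 of 3 litters. That call was lost in 14 of 24 alternatives. They include leaving out any 1 double-positive library, RFP-only litter 1 or 2, or GFP-only litter 1 (0.0581 to 0.197), and edgeR (0.075). The others were a pseudocount of 0.5, no filter, TMM scaling, no mean-variance trend and leaving litter 1, 2 or 5 out of all populations.

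Ank (chr15:27466677-27594909, plus strand), the mouse symbol of a multipass membrane protein that promotes the supply of pyrophosphate outside the cell, had 442, 352 and 813 normalized counts in double-positive libraries, 299, 364 and 309 in RFP-only libraries and 669, 1277 and 499 in GFP-only libraries. It spanned the narrowest range of the 10 genes, and its double-positive values overlapped with those of both other populations. The log2 difference was -0.58 for double-positive relative to GFP-only cells (95% interval -1.45 to 0.29, limma adjusted p = 0.384, ratios within litters of -0.60, -1.86 and 0.70) and 0.63 for double-positive relative to RFP-only cells (-0.23 to 1.50, adjusted p = 0.607). For RFP-only relative to GFP-only cells it was -1.22, with an interval of -2.09 to -0.35, and did not pass (adjusted p = 0.0506). It passed there in 8 of 24 alternatives, among them leaving out GFP-only or double-positive litter 5 (0.0214 and 0.0402) and DESeq2 (0.00948).

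**Figure D2:**
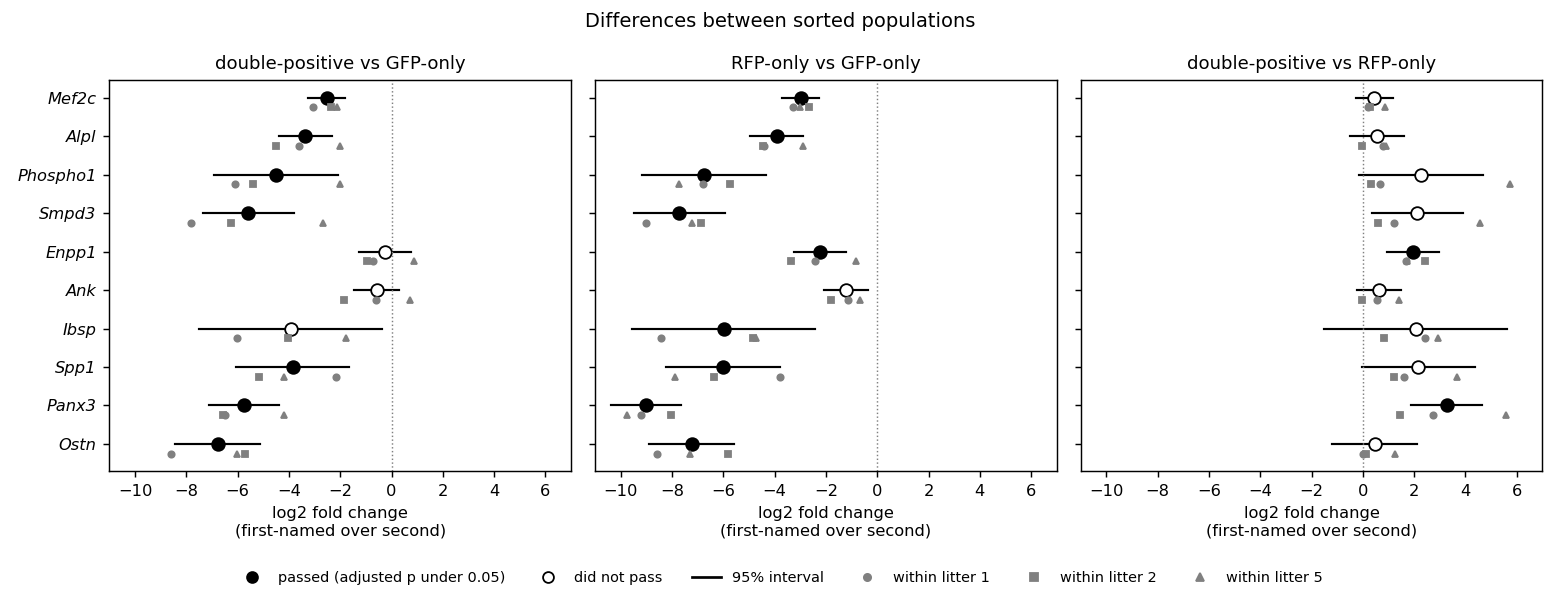
Log2 fold changes of the 10 genes with 95% intervals in the 3 comparisons, filled where the adjusted p was under 0.05, with the ratios within litters in grey. Panx3 lies at -9.00 in RFP-only relative to GFP-only cells, and Enpp1 and Ank lie nearest to 0 in double-positive relative to GFP-only cells, where litter 5 has the opposite sign.

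The 250 bases before the RefSeq start of Phospho1 and Enpp1 are shown for the contrast between an enzyme gene that fell in double-positive relative to GFP-only cells and one that did not pass. They are from RefSeq on GRCm38.p6, Phospho1 (chr11:95824250-95824499) on the plus strand and Enpp1 (chr10:24712160-24712409) on the minus strand. Capitals mark matches, on either strand, to the letters of a RUNX (TGTGGT), SOX (ACAANG), CRE (TGACGT), AP-1 (TGANTCA) or homeodomain (TAATTA) motif or to the MEF2 consensus.
Phospho1: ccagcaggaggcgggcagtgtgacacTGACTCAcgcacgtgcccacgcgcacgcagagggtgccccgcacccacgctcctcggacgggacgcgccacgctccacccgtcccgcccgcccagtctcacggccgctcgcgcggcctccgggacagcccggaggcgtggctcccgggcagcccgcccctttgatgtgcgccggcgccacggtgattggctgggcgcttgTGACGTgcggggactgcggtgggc
Enpp1: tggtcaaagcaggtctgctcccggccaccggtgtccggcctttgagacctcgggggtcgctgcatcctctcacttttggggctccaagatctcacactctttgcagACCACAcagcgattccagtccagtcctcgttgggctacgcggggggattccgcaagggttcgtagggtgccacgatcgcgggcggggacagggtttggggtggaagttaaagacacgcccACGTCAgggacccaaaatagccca
Both windows hold the CRE letters starting 24 bases before the start site, on opposite strands. The Phospho1 window also holds the AP-1 letters, starting 224 bases before the start, and that of Enpp1 the RUNX letters, starting 144 bases before it. Over 32851 promoter windows of 300 bases, 7.51% hold the CRE letters, 7.81% AP-1, 16.8% RUNX, 41.2% SOX, 5.29% homeodomain and 3.69% MEF2 letters. Of 11 such windows, which belong to 7 of the 10 genes, 3 hold CRE, 2 AP-1, 2 RUNX, 7 SOX, 2 homeodomain and 0 MEF2 letters. A match describes the letters and is not a binding site.

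The RNA of the phosphatase gene Alpl was set against that of Enpp1 and of Ank within each library. The ratio was of normalized counts per kilobase of exon. Such a ratio does not measure protein, enzyme activity or pyrophosphate. The ratio of Alpl to Enpp1 was 2.05, 1.51 and 1.23 in double-positive libraries, 3.84, 8.33 and 2.18 in RFP-only libraries, and 14.998, 17.5 and 9.09 in GFP-only libraries. The 3 populations did not overlap in this ratio. Double-positive libraries were lowest, although RFP-only libraries had the lower mean level per kilobase of both genes. The highest double-positive ratio (2.05) lay close to the lowest RFP-only ratio (2.18). How many other gene pairs separate the populations in this way was not counted. The ratio of Alpl to Ank was 1.55, 2.40 and 1.30 in double-positive libraries, 1.31, 2.38 and 1.82 in RFP-only libraries, and 12.4, 14.9 and 8.42 in GFP-only libraries. Here double-positive and RFP-only libraries overlapped and GFP-only libraries were higher. These ratios were not tested.

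**Figure D3:**
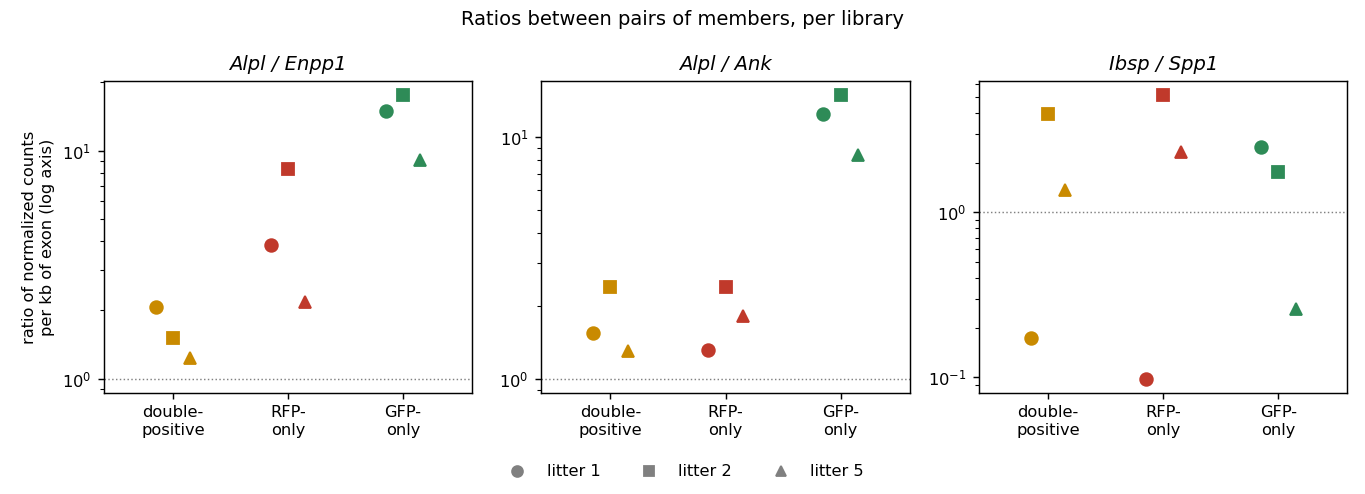
Ratios of Alpl to Enpp1, Alpl to Ank and Ibsp to Spp1 (normalized counts per kilobase of exon, log axis) in each library. The ratio of Alpl to Enpp1 is at most 2.05 in double-positive libraries and 9.09 to 17.5 in GFP-only libraries, while the ranges of Ibsp to Spp1 overlap between all populations.

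Ibsp and Spp1 encode bone sialoprotein and osteopontin. They lie 123648 bases apart on the plus strand of mouse chromosome 5 (Ibsp at chr5:104299171-104311469, Spp1 at chr5:104435118-104441050, GRCm38), in a cluster with Dspp, Dmp1 and Mepe that spans 270339 bases. Ibsp had 179, 4359.6 and 9239 normalized counts in double-positive libraries, 32.8, 2476 and 1208 in RFP-only libraries and 11551, 70669 and 31807 in GFP-only libraries. In every population litter 1 was lowest, by 51.7-fold in double-positive, 75.6-fold in RFP-only and 6.12-fold in GFP-only cells against the highest litter. All GFP-only values were above all others, though the lowest of them was close to the double-positive value of litter 5. Ibsp was lower in 3 of 3 litters of double-positive relative to GFP-only cells, by a fitted -3.94 ± 1.62 that did not pass (limma adjusted p = 0.161), whereas it passed with litter as a block (adjusted p = 0.0131). It fell in RFP-only relative to GFP-only cells (-5.99 ± 1.62, adjusted p = 0.0236), a call lost on leaving out RFP-only litter 1 or GFP-only litter 2 or 5 (0.0598 to 0.0784). The call was also lost with no mean-variance trend and on leaving litter 2 or 5 out of all populations.

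Spp1 is shown with the 250 bases before its first RefSeq start (chr5:104434861-104435110, GRCm38.p6, plus strand), since it had the highest mean level per kilobase of the 10 genes in GFP-only cells and varied most between litters there. Capitals again mark the motif letters.
Spp1: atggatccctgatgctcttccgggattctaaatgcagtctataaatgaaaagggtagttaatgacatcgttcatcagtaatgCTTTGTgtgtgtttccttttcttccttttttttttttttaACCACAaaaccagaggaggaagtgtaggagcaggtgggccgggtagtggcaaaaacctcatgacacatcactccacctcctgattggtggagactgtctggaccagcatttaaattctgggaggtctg
The window holds RUNX letters starting 128 bases and SOX letters starting 168 bases before the start. Spp1 had 818, 884 and 5357 normalized counts in double-positive libraries, 266, 385 and 417 in RFP-only libraries and 3709, 32112 and 97922 in GFP-only libraries. It varied 26.4-fold among the GFP-only libraries, and the lowest of these, in litter 1, was below the double-positive value of litter 5. Spp1 fell in RFP-only relative to GFP-only cells (-6.02 ± 1.01, limma adjusted p = 0.00181). It also fell in double-positive relative to GFP-only cells (-3.85 ± 1.01, adjusted p = 0.0392), a call lost on leaving out double-positive litter 1 or 2, GFP-only litter 2 or 5, or any 1 RFP-only library (0.0589 to 0.143), and with no filter (0.0577) or no mean-variance trend (0.103). The call was also lost when only those 2 populations were fitted and when litter 2 was left out of all populations, in all in 11 of 24 alternatives. Double-positive values of Spp1 were all above RFP-only values, by a fitted 2.16 ± 1.01 that did not pass (limma adjusted p = 0.392).

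The ratio of Ibsp to Spp1 per kilobase was 0.174, 3.93 and 1.37 in double-positive libraries, 0.0982, 5.12 and 2.31 in RFP-only libraries, and 2.48, 1.75 and 0.259 in GFP-only libraries. The ratio of litter 1 was the lowest in double-positive and RFP-only cells and the highest in GFP-only cells. In the rest of the cluster, Dmp1, a matrix protein gene of osteocytes, had 12.5, 88.9 and 186 normalized counts in double-positive, 35.0, 71.3 and 127 in RFP-only and 46.3, 1545 and 338 in GFP-only cells. Mepe had 6 reads over the 9 libraries and Dspp had 0.

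Panx3 (chr9:37659902-37669235, minus strand) encodes a pannexin that releases ATP and also acts in the endoplasmic reticulum of osteogenic cells. It had 324, 405 and 1781 normalized counts in double-positive libraries, 47.2, 147 and 36.4 in RFP-only libraries and 28849, 38721 and 32215 in GFP-only libraries. The GFP-only values differed by at most 1.34-fold and stood far above all others. Panx3 fell in double-positive relative to GFP-only cells (log2 fold change -5.74 ± 0.62, limma adjusted p = 0.000527) and in RFP-only relative to GFP-only cells (-9.00 ± 0.62, adjusted p = 7.84e-06). The difference for RFP-only cells, 513-fold as fitted, was the largest fitted for any of the 10 genes in any comparison. Panx3 rose in double-positive relative to RFP-only cells (3.26 ± 0.62, adjusted p = 0.0188), with no overlap and with ratios of 2.75, 1.46 and 5.57 within litters. That call was lost on leaving out RFP-only litter 1 or 5 (0.0736 and 0.0861), and with no mean-variance trend (0.0681). The call was also lost on leaving litter 1 or 5 out of all populations (limma adjusted p up to 0.124).

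Ostn (chr16:27307489-27351212, plus strand) encodes osteocrin, also called musclin, a peptide of bone and muscle that binds the natriuretic peptide clearance receptor. It had 3.84, 25.7 and 24.7 normalized counts in double-positive libraries, 3.81, 23.8 and 9.80 in RFP-only libraries and 1853, 1401 and 1681 in GFP-only libraries. The GFP-only values were within 1.32-fold of each other, and the double-positive values rest on 4, 33 and 33 reads. Ostn fell in double-positive relative to GFP-only cells (log2 fold change -6.78 ± 0.75, limma adjusted p = 0.000611) and in RFP-only relative to GFP-only cells (-7.23 ± 0.75, adjusted p = 9.84e-05). Its double-positive to RFP-only difference of 0.46 had an interval of -1.19 to 2.10 (adjusted p = 0.935).

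Per kilobase of exon, the GFP-only means ranked Spp1 (27052 normalized counts per kilobase), Ibsp (18379.6), Panx3 (9686), Smpd3 (4622), Alpl (2909), Ostn (1156), Mef2c (767), Phospho1 (306), Ank (226) and Enpp1 (194). Panx3 did not overlap with Smpd3 across libraries, Ostn not with Mef2c and Mef2c not with Phospho1, while every other pair of neighbours in this order overlapped. Spp1, Ibsp and Panx3 lay at percentiles 99.7, 99.4 and 98.6 of 17756 tested genes in GFP-only cells, and Enpp1 at percentile 60.5. In double-positive cells Ibsp (2221) and Spp1 (1428) again had the highest means per kilobase, and Phospho1 (13.9) and Ostn (12.7) the lowest. In RFP-only cells Ibsp (599) and Spp1 (216) were highest, and Ostn (8.76) and Phospho1 (3.97) lowest. The top of these orders of means did not hold in every litter. In litter 1 Ibsp was at 86.4 in double-positive and 15.8 in RFP-only cells, below Spp1, Alpl, Ank and Enpp1 in both. In RFP-only litter 2 Alpl (240) was above Spp1 (234).

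Within double-positive cells the litters differed in the same direction for most of the genes. For 9 of the 10 the value was highest in litter 5, Ostn being the exception, while litter 5 was highest among double-positive libraries for 34.3% of tested genes. In the same libraries the summed level of 12 chondrocyte markers (Col2a1, Acan, Sox5 and others) was 390678, 358776 and 993546 normalized counts, and that of 12 macrophage and leukocyte markers was 2664, 7083 and 17619. The part of either in the values of the 10 genes was not tested. Leaving out double-positive litter 5, 7, 10 and 1 of the 10 genes were called in double-positive relative to GFP-only, RFP-only relative to GFP-only and double-positive relative to RFP-only cells, beside 1008, 3283 and 223 of all tested genes. Among RFP-only libraries 8 of the 10 were highest in litter 2, where 37.6% of tested genes were, and among GFP-only libraries 6 were highest in litter 2, where 28.7% were.

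Marker lists of cell types in which these genes are also known were read beside them. Of 12 chondrocyte markers 7 fell in double-positive relative to GFP-only cells (median log2 difference -1.80), 12 fell in RFP-only relative to GFP-only cells (-7.74) and 12 rose in double-positive relative to RFP-only cells (5.67). Of 8 osteoblast markers 6 were tested. In double-positive relative to GFP-only cells 3 fell and 3 did not pass, with log2 differences of -4.24 to 0.82 (median -2.66), and in RFP-only relative to GFP-only cells 3 fell and 3 did not pass, with -6.34 to 1.90 (median -2.67). Sp7 and Ifitm5 fell in both. The list summed to 50671 to 115562 in double-positive, 138617 to 202442 in RFP-only and 12983 to 238876 in GFP-only libraries. Without Col1a1, which made up most of that, it summed to 369.9 to 1353 in double-positive, 499.7 to 938 in RFP-only and 6442 to 13821 in GFP-only libraries. Sp7, which encodes the transcription factor osterix of osteoblasts and hypertrophic chondrocytes, had 219, 165 and 539 normalized counts in double-positive, 22.9, 65.7 and 155 in RFP-only and 7591, 6691 and 2616 in GFP-only cells. The osteocalcin gene Bglap, of mature osteoblasts, was at most 4.68 normalized counts in any library, and Bglap2 had no read in double-positive and RFP-only libraries. The part of osteoblasts in these results was not tested.

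The macrophage and leukocyte list was read beside Spp1. Of its 12 genes 9 rose and 3 did not pass in double-positive relative to GFP-only cells (median log2 difference 4.81), and 6 rose and 6 did not pass in RFP-only relative to GFP-only cells (3.59), where Spp1 fell. In double-positive relative to RFP-only cells the differences of its genes were 0.44 to 2.07 (median 1.45), of the same sign as that of Spp1, and like it did not pass. The list summed to 2664 to 17619 in double-positive, 1389 to 4718 in RFP-only and 213 to 897 in GFP-only libraries. Csf1r, a macrophage receptor gene, had 368, 949.6 and 2514 normalized counts in double-positive, 798, 277 and 339 in RFP-only and 1.65, 24.5 and 31.2 in GFP-only cells. The 10 skeletal muscle markers, read beside Ostn and Mef2c, summed to 1028 to 3228 in double-positive, 8071 to 32075 in RFP-only and 829 to 2169 in GFP-only libraries. The 10 endothelial markers summed to 1497 to 5737 in double-positive, 5097 to 6727 in RFP-only and 1169.7 to 2222 in GFP-only libraries. Of 7 osteoclast markers 5 were tested, and the list summed to 1348 to 3339.9 in double-positive, 3927.5 to 7670.0 in RFP-only and 2608 to 6872 in GFP-only libraries. The macrophage, muscle and endothelial lists had their lowest means in GFP-only cells, and the osteoclast list in double-positive cells. The part of these cell types in the values of Spp1, Ostn and Mef2c was not tested.

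Other genes of the same pathways were taken as 5 lists. All 18 regulators of hypertrophy were tested, and 8 fell, 1 rose and 9 did not pass in double-positive relative to GFP-only cells (median log2 difference -2.43). Pth1r, the receptor of the parathyroid hormone-related protein that delays hypertrophy, fell (-2.49 ± 0.21, limma adjusted p = 0.000128), as did the homeobox gene Dlx5 (-3.02 ± 0.26, adjusted p = 0.00014). Pthlh, which encodes that ligand, had 1731, 1028 and 1698 normalized counts in double-positive, 255, 302 and 299.6 in RFP-only and 297, 361 and 484 in GFP-only cells, and all double-positive values were above the rest. Pthlh rose (1.95 ± 0.30, adjusted p = 0.00313), a call lost when litter 1 was left out of all populations (0.0904). In RFP-only relative to GFP-only cells 10 regulators fell, among them Sox9, which set the sort, and 8 did not pass (median -2.99). Those that fell include Ihh, the hedgehog ligand gene of prehypertrophic chondrocytes (-9.07 ± 0.55, adjusted p = 4.96e-06), and Dlx5 (-4.63 ± 0.26). In double-positive relative to RFP-only cells 5 rose and 13 did not pass (median 0.81), among the risen Foxa3, a forkhead gene (7.27 ± 0.75, adjusted p = 0.000498), besides Sox9, which set the sort. The RFP-only values of Foxa3 rest on 11, 9 and 0 reads, and its difference ranged from 5.85 to 8.14 over fits without 1 library or litter.

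Of 14 genes of mineral-binding and mineralizing matrix 10 were tested, and 2 fell, 1 rose and 7 did not pass in double-positive relative to GFP-only cells (median -0.48). Col10a1, the collagen gene that defines hypertrophic cartilage, had 56.7, 673 and 5035 normalized counts in double-positive, 19.8, 356 and 228 in RFP-only and 10049, 72495 and 58216 in GFP-only cells. All its GFP-only values were above the rest. It fell in double-positive relative to GFP-only cells (-5.91 ± 1.47, limma adjusted p = 0.0319), a call lost on leaving out double-positive litter 1 or 2 or GFP-only litter 2 or 5, and with edgeR. The call was also lost with no mean-variance trend, in a fit of those 2 populations and on leaving litter 2 out of all populations. Ifitm5, a membrane protein gene of mineralizing osteoblasts, fell in double-positive cells (-4.21 ± 0.58, adjusted p = 0.00213) and RFP-only cells (-4.97 ± 0.58, adjusted p = 0.000207), both relative to GFP-only cells. Smoc1, a secreted calcium-binding protein gene, rose in double-positive relative to GFP-only cells (2.40 ± 0.39, adjusted p = 0.00462).

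In RFP-only relative to GFP-only cells 4 matrix genes fell and 6 did not pass (median -1.05), and in double-positive relative to RFP-only cells 2 rose and 8 did not pass (median 0.29). Mgp, which encodes the mineralization inhibitor matrix Gla protein, had 6209.5, 7787 and 7733 normalized counts in double-positive, 647, 1036 and 1574 in RFP-only and 8793, 14675 and 37520.1 in GFP-only cells, so the RFP-only values were lowest. Mgp fell in RFP-only relative to GFP-only cells (-4.05 ± 0.46, limma adjusted p = 0.000171) and rose in double-positive relative to RFP-only cells (2.82 ± 0.46, adjusted p = 0.00791). Smoc1 also rose in double-positive relative to RFP-only cells (1.80 ± 0.39, adjusted p = 0.0353), a call lost on leaving out any 1 double-positive library or RFP-only litter 1 or 2.

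Of the 12 other genes of phosphate and pyrophosphate handling, 10 did not pass in double-positive relative to GFP-only cells. In RFP-only relative to GFP-only cells 9 did not pass. In double-positive relative to RFP-only cells 10 did not pass, where edgeR called 0 of 12 and limma 2. Of all tested genes 8.29%, 20.3% and 2.85% were called in these comparisons, so most genes did not pass there either. Ppa1, a cytosolic pyrophosphatase gene, had 5822, 4726 and 4649 normalized counts in double-positive, 4042, 4978 and 4009.5 in RFP-only and 16995, 16654 and 39566 in GFP-only cells. It was the 1 that fell in double-positive relative to GFP-only (-2.15 ± 0.31, limma adjusted p = 0.00234) and in RFP-only relative to GFP-only cells (-2.37 ± 0.31, adjusted p = 0.000388). Enpp3, a relative of Enpp1, rose in RFP-only relative to GFP-only cells (2.12 ± 0.38, adjusted p = 0.00285). It also rose in double-positive relative to GFP-only cells (1.50 ± 0.38, adjusted p = 0.0354), a call lost on leaving out GFP-only litter 2 or any 1 library of the other populations, and with litter as a block (adjusted p = 0.05002).

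Abcc6, whose product drives ATP release in liver, had 0, 0 and 1.50 normalized counts in double-positive, 36.6, 40.8 and 42.0 in RFP-only and 0, 0 and 4.07 in GFP-only cells, so that only RFP-only libraries were above a few reads. Its means were 0.498 in double-positive, 39.8 in RFP-only and 1.36 in GFP-only cells. It thus reached the mean of at least 10 needed for testing only through the RFP-only libraries, the population in which it was then called higher. Abcc6 passed in RFP-only relative to GFP-only cells, where it was higher (limma adjusted p = 0.0118), and in double-positive relative to RFP-only cells, where it was lower (0.0353). Both calls were lost on leaving out any 1 RFP-only library, and the call between double-positive and RFP-only cells also on leaving out any 1 double-positive library. Nt5e, which makes adenosine from AMP, fell in double-positive relative to RFP-only cells (-1.76 ± 0.38, adjusted p = 0.0322), a call lost on leaving out double-positive litter 1 or 2 or any 1 RFP-only library.

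Of 12 genes of sphingomyelin, phosphocholine and matrix vesicles, 2 fell and 10 did not pass in double-positive relative to GFP-only cells, 3 fell, 2 rose and 7 did not pass in RFP-only relative to GFP-only cells, and in double-positive relative to RFP-only cells 0 of 12 passed by limma and by edgeR, 3 by DESeq2, and 4 had an unadjusted limma p under 0.05. Sgms2, a sphingomyelin synthase gene, had 292, 533 and 1228 normalized counts in double-positive, 177, 271 and 284 in RFP-only and 10212, 14206 and 10727 in GFP-only cells, so that no GFP-only library came near the others. It fell in double-positive (-4.33 ± 0.43, limma adjusted p = 0.000372) and in RFP-only cells (-5.60 ± 0.43, adjusted p = 1.41e-05), both relative to GFP-only cells. Anxa5, an annexin gene of matrix vesicles, fell in RFP-only (-1.47 ± 0.23, adjusted p = 0.0011) and in double-positive cells (-1.09 ± 0.23, adjusted p = 0.0147), the call for double-positive cells being lost on leaving out their litter 1 or 2. Sgms1, a paralog of Sgms2, rose in RFP-only relative to GFP-only cells (0.90 ± 0.22, adjusted p = 0.0139), a call lost on leaving out RFP-only litter 1 or 5. Anxa6 rose in the same comparison (0.62 ± 0.19, adjusted p = 0.0432), a call lost on leaving out GFP-only litter 1 or any 1 library of the other populations.

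Of 12 genes of pannexins, connexins and natriuretic peptide signaling 10 were tested. In double-positive relative to GFP-only cells 1 fell, 1 rose and 8 did not pass, in RFP-only relative to GFP-only cells 1 fell, 3 rose and 6 did not pass, and in double-positive relative to RFP-only cells 2 fell and 8 did not pass. Npr3, the clearance receptor gene whose product binds osteocrin, had 205, 266 and 280.4 normalized counts in double-positive, 805, 976 and 871 in RFP-only and 33.1, 45.3 and 96.3 in GFP-only cells. The 3 populations did not overlap. Their order was opposite to that of the means of Ostn, whose double-positive and RFP-only values overlapped and did not pass as different. Npr3 rose in double-positive relative to GFP-only (2.22 ± 0.40, limma adjusted p = 0.00711) and in RFP-only relative to GFP-only cells (4.04 ± 0.40, adjusted p = 6.62e-05). It fell in double-positive relative to RFP-only cells (-1.82 ± 0.40, adjusted p = 0.0341), a call lost on leaving out any 1 library of those populations.

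Nppc, which encodes C-type natriuretic peptide, rose in RFP-only relative to GFP-only cells (2.65 ± 0.36, limma adjusted p = 0.000565). It fell in double-positive relative to RFP-only cells (-1.90 ± 0.36, adjusted p = 0.019), a call lost on leaving out double-positive litter 1 or 5 or RFP-only litter 2 or 5. Prkg2, the gene of a cGMP-dependent kinase downstream of that peptide in growth plate cartilage, fell in double-positive (-4.09 ± 0.36, adjusted p = 0.00014) and in RFP-only cells (-4.75 ± 0.36, adjusted p = 1.19e-05), both relative to GFP-only cells.

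**Figure D4:**
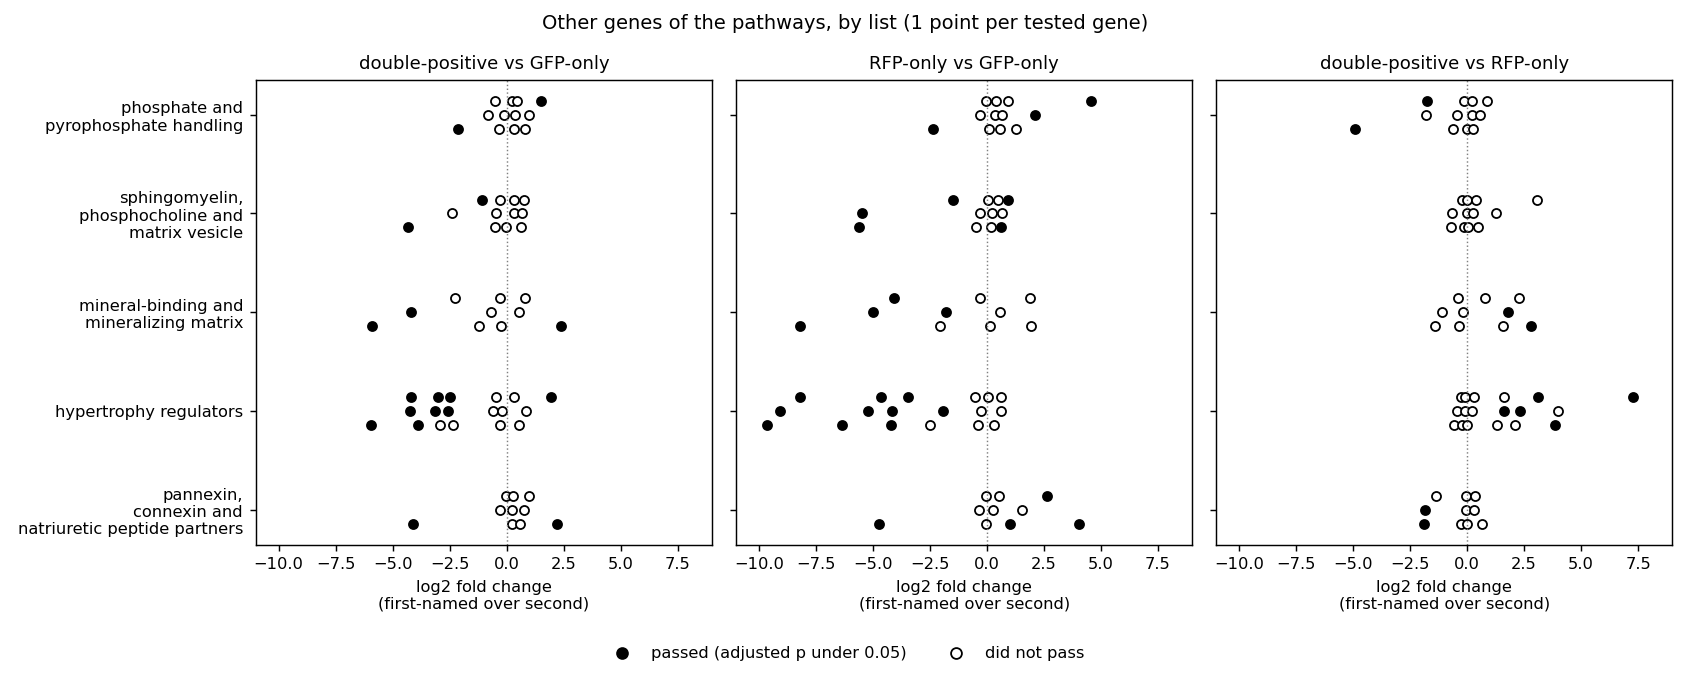
Log2 fold changes of the other tested pathway genes in the 3 comparisons, by list, filled where the adjusted p was under 0.05. Of 18 regulators of hypertrophy 8 are lower and 1 is higher in double-positive relative to GFP-only cells. Of 12 genes of phosphate and pyrophosphate handling 10 did not pass there. Of all tested genes 8.29% were called in that comparison.

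The pattern of each gene was also set against all other tested genes, by Pearson correlation of log2 levels over the 9 libraries. The libraries fall into 3 populations and share litters, so these values mostly follow the difference between populations and are a description. Panx3 was most like Ihh (r = 0.996), followed by Plcd1 (0.988) and Oat (0.986). Smpd3 was most like Cercam (0.989), Ihh (0.985) and Scarb1 (0.983), Ostn like Ifitm5 (0.988), Pltp and Gnb4, and Mef2c like Surf4 (0.990), Sgms2 (0.988) and Stk39. Ibsp was most like Col10a1 (0.959), Hspg2 and Mid2, and Spp1 like Atp6ap1 (0.983), Fbxo9 and Perp. Such an r does not depend on the size of a difference. Means in double-positive, RFP-only and GFP-only cells were 10151, 9286 and 11776 for Atp6ap1, against 2353, 356 and 44581 for Spp1. Those of Ihh, named for Panx3 and Smpd3, were 277, 27.2 and 13821. Alpl was most like Hps1 (0.980), Sdc2 and Ckap4, and Phospho1 like Upk1b (0.984), Acad11 and Iqsec1. Enpp1 was most like Zfpm2 (0.956), App and Tapbp, and Ank like Tmem185a (0.960), Gne and Btbd19. Among the 10 genes themselves r was highest between Ostn and Mef2c (0.984) and between Panx3 and Smpd3 (0.983), and lowest between Enpp1 and Ostn (0.575).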

How the data were processed

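Bulk RNA libraries of sorted knee cells were prepared with the Nextera XT kit, as the labels' protocols state. FastQC, STAR, Salmon, DESeq2 and the build mm10 appear in the submitters' processing notes, with neither versions nor roles. Gene models and strand setting were not stated there, so overlapping and antisense genes cannot be told apart. Values in the deposited table are a signal per gene, namely counts that the authors normalized. Dividing by the smallest step of a library gave whole numbers for 100% of its values (tolerance 0.001 of a read), the recovered reads, which total 25199258 to 47079305 per library. If the authors rounded estimates first, these are rounded estimates, and floors cover counting error only.

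Symbols, coordinates and exon lengths came from GENCODE M21 (GRCm38, which mm10 names), which matched 54495 of 54532 identifiers, and promoters from RefSeq on GRCm38.p6. Log2(normalized count + 1), which understates fold changes of low genes, was tested 2-sided in R 4.3.3 by limma 3.58.1 with its trend option. All 9 libraries entered 1 fit of the 17764 genes with a mean of at least 10, with Benjamini-Hochberg adjustment over all of them and calls under 0.05. The procedure was tried on simulated counts with the same setting of variation for every gene and no litter effect. That trial does not cover genes that vary widely between litters. Intervals are 95%. Replicates are separate litters and differed by more than sampling noise. The labels tie each number to 1 litter, so the numbers pair the libraries. Deviations from population means correlated with a median of 0.103 over 9 pairs of the same litter, against -0.0409 over 18 pairs of different litters. Alternatives changed pseudocount, filter, scaling, variance prior, weights, the block and the libraries fitted. With recovered reads, edgeR 4.0.16 called 1236 genes in double-positive relative to GFP-only, 3191 in RFP-only relative to GFP-only and 411 in double-positive relative to RFP-only cells, and DESeq2 1.42.0 was a further alternative.

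The members, lists and rules were chosen with earlier results of these data known. Besides the members, up to 2 called genes per pathway list, comparison and direction with the smallest adjusted p are named, as are the 3 genes most like each member, leaving out predicted genes and pseudogenes. Col1a1, Dmp1, Mepe, Dspp, Zfp652, Abi3, Creb5 and the marker genes are given for context.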

Additional observations from a re-analysis of the deposited data

How the results depend on the processing

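Over 24 alternatives the calls of Alpl, Panx3, Ostn and Mef2c in double-positive relative to GFP-only cells, and those of Alpl, Spp1, Panx3, Phospho1, Ostn, Mef2c and Smpd3 in RFP-only relative to GFP-only cells, kept their direction and side of the threshold. Over fits that left out 1 library or litter, 4 to 7 members were called in double-positive relative to GFP-only cells, 7 to 10 in RFP-only relative to GFP-only cells and 0 to 2 in double-positive relative to RFP-only cells, and all genes called ranged from 229 to 1553, from 1598 to 3716 for RFP-only and GFP-only cells, and from 112 to 1050 in double-positive relative to RFP-only cells. In the last comparison 1 member was called with a pseudocount of 0.5, no filter, TMM scaling or edgeR. All genes called in these fits were 472, 444, 492 and 411. With no mean-variance trend 0 members and 367 of all genes were called in that comparison. All genes called there were 1545 with array weights, 1008 in fits of 2 populations and 1152 with DESeq2, against 506, and for double-positive relative to GFP-only cells 697 in fits of 2 populations and 2780 with DESeq2, against 1472. The cause was not tested. Signs turned only for differences that did not pass: over fits without 1 library or litter, Enpp1 ranged from -0.84 to 0.10 and Ank from -1.23 to 0.053 (double-positive relative to GFP-only cells), and Ostn from -0.13 to 1.27 (double-positive relative to RFP-only cells). With litter as a replicate block 8, 9 and 2 members were called in the 3 comparisons, beside 1616, 3673 and 558 of all genes, adding Ibsp in double-positive relative to GFP-only cells, and of the other named genes the block ended only the Enpp3 call there (adjusted p = 0.05002). Leaving litter 1 or 2 out of all populations also ended the calls of Smoc1 and Npr3 in double-positive relative to GFP-only cells and of Mgp in double-positive relative to RFP-only cells. The same held for Enpp3 and Anxa5 in double-positive relative to GFP-only cells, and for Abcc6 and Anxa6 in RFP-only relative to GFP-only cells. It also held for Nt5e, Abcc6, Smoc1, Npr3 and Nppc in double-positive relative to RFP-only cells. Sgms1 lost its call in RFP-only relative to GFP-only cells when litter 1 or 5 was left out of all populations. The alternatives named above for these genes are not a complete list. Phospho1, Ostn and Foxa3 rest on few reads in some populations, which limits their fold changes.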
